A study of Mus musculus with 9 samples.

Results

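A set of 40 type I interferon response genes was followed in murine leukaemia cells after knockdown of Syncrip. The members were chosen by name, as the rows of the count tables that carry 1 of 40 listed symbols, and all 40 were found among the 38926 symbols measured. They were ordered by what their products do: 5 sensors of viral nucleic acid, 4 signal transducers and transcription factors, 6 genes of the ubiquitin-like protein ISG15 and of ubiquitin and ADP-ribose transfer, 8 enzymes that bind double-stranded RNA or relatives of these, and 17 other effectors. The question was whether sensors, signalling genes and effectors moved alike with each of 2 hairpins against Syncrip. The product of Syncrip, a member of the hnRNP family, binds RNA, and the series title connects it with the programme of leukaemia stem cells.

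The cells came from a mouse acute myeloid leukaemia that is driven by the MLL-AF9 fusion and had been passed through tertiary transplants. All 3 groups carry that fusion and all were transduced with a short hairpin RNA (shRNA) construct: a control hairpin, shRNA-1 against Syncrip or shRNA-2 against Syncrip. RNA was taken at day 4 after transduction, in 3 libraries per group from cells that were transduced and handled one sample at a time. The labels call the control a scramble while the design text names luciferase, and which of them was used is not known here. The samples come from 1 leukaemia line, no untransduced cells were analysed here, and whether the replicates came from separate mice is not given, so p-values measure the spread between separately transduced cultures.

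Type I interferons are secreted when cells detect foreign or misplaced RNA or DNA. They bind the receptor chains IFNAR1 and IFNAR2, whose kinases JAK1 and TYK2 phosphorylate STAT proteins, and these join IRF9 in a complex that binds the interferon-stimulated response element (ISRE) of target genes. The products sense viral nucleic acid, amplify the signal, block viral entry, translation or replication, or dampen the response, and myeloid cells keep a low level of the response at rest.

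Promoter sequence was available for 32 members, in windows from 250 bases before to 50 bases after the start of transcription (RefSeq, GRCm38.p6). The ISRE core searched, 2 copies of GAAA with any 2 bases between them on either strand, stood in the windows of 15 of the 32 (46.9%), against 1079 of 27025 symbols with a window (3.99%). The letters TTCNNNGAA, a core that STAT dimers bind (GAS, its own reverse complement), stood in those of 9 of the 32 (28.1%), against 2582 of the 27025 (9.55%). A match is a description of the letters and not a measured binding site. Stretches of 180 bases up to the start are printed for 5 members whose values carry the comparison of the hairpins: Oas1g, which had the largest rise with shRNA-1, Ifit3, the largest rise with shRNA-2 among genes with a match, Isg20, which moved in opposite directions, and Isg15 and Rsad2, added after their values were seen as an ISG15 gene and an antiviral enzyme with a match. They read 5′ to 3′ on the strand of the gene, with motif matches in capitals, overlapping matches run together, and only the capitals of Isg20 are a GAS core.
Oas1g, chr5:120887614-120887793, minus strand: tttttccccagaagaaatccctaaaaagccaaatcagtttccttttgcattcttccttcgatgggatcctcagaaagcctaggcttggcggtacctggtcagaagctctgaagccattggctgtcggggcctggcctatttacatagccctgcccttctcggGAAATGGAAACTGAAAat
Ifit3, chr19:34583349-34583528, plus strand: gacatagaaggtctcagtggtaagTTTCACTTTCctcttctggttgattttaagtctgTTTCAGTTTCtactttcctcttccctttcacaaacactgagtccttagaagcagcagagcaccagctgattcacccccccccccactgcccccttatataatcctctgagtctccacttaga
Isg20, chr7:78913244-78913423, plus strand: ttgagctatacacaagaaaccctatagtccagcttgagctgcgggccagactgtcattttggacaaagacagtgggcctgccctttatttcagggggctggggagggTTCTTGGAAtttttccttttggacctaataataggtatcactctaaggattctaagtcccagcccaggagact
Isg15, chr4:156200819-156200998, minus strand: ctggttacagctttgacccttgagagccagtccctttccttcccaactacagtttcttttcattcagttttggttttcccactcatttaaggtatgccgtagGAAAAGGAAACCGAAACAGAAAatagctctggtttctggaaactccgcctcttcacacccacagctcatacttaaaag
Rsad2, chr12:26456453-26456632, minus strand: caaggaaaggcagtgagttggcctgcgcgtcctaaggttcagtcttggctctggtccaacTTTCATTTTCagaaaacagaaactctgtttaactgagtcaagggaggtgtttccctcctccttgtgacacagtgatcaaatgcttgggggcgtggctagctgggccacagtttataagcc
In Oas1g the matches began 18 and 12 bases before the start, and in Isg15, 78, 72 and 66 bases before it. Ifit3 held them at 156 and 122 bases and Rsad2 at 120 bases before the start. The windows of Oasl2 and Lgals3bp, the 2 members with the widest differences between the hairpins, held neither motif.

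The libraries held between 9559638 and 19483923 counts. Syncrip itself served as the check of the labels: its level was 241, 231 and 207 CPM in the controls, 20.1, 15.9 and 17.3 with shRNA-1 and 63.2, 46.3 and 60.4 with shRNA-2, in replicate order as everywhere here. CPM are counts scaled for library size, with TMM factors. Syncrip fell with both hairpins, with log2 fold changes of -3.68 for shRNA-1 and -1.999 for shRNA-2 (edgeR quasi-likelihood adjusted p = 3.79e-07 and 2.19e-06), and the loss was smaller with shRNA-2 (difference -1.68, adjusted p = 9.67e-06). Reads of ribosomal RNA made up 4.77% to 8.29% of the control libraries, 11.98% to 19.3% of the shRNA-1 libraries and 6.10% to 15.8% of the shRNA-2 libraries. Of 12 transcripts listed for leukaemia cells of this kind, 11 passed the filter on low counts. Among them were Hoxa9 at 399 ± 35.9, Meis1 at 72.5 ± 2.59, Myb at 459.9 ± 25.9 and Ptprc (CD45) at 204 ± 9.75 CPM in the controls (mean ± SD, n = 3 each). Kit was at 6.40 ± 0.54 CPM there, and Flt3, with 4, 4 and 7 counts in the controls, failed the filter. Hoxa9, Meis1 and Myb fell with both hairpins, Hoxa9 to 272 ± 8.38 CPM with shRNA-1 and 147 ± 7.03 with shRNA-2 (edgeR adjusted p = 0.00362 and 3.57e-06). Hoxa10, of the same list, rose with shRNA-1 (log2 fold change 0.37, edgeR adjusted p = 0.0318) and was not called with shRNA-2. Of the 11 tested genes of that list, 2 rose and 5 fell with shRNA-1, and 3 rose and 6 fell with shRNA-2. Of all genes tested, 17.4% rose and 17.3% fell with shRNA-1, and 24.4% and 24.2% with shRNA-2. Mpo rose with shRNA-1 and fell with shRNA-2 (log2 fold changes 4.64 and -1.30). The part of these changes in the members' levels was not tested.

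With shRNA-2 the interferon response genes were higher across every role, and with shRNA-1 most were not called. Of the 40 members, 39 passed the filter on low counts, and edgeR's quasi-likelihood test at an adjusted p under 0.05 called 32 of these higher with shRNA-2, 0 lower and 7 not called, where 24.4% of all 12663 genes tested were higher and 24.2% lower. With shRNA-1 it called 8 higher, 2 lower and 29 not called, against 17.4% and 17.3% of all genes. The rises with shRNA-1 thus lay near the background share and the falls below it, and the counts by role that follow are small. The median log2 fold change of the 39 was 1.82 with shRNA-2 and 0.34 with shRNA-1, where the medians of all genes tested were 0.00 and 0.02. Mx1 and Mx2 passed the filter only through the shRNA-2 libraries, and of the other 37, 30 were higher with shRNA-2 and 8 with shRNA-1, with medians of 1.78 and 0.42. In these bulk samples a change in the number of cells of a type and a change in the RNA per cell cannot be told apart.

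Set against each other, the hairpins differed. The level with shRNA-1 was lower than with shRNA-2 for 34 of 39 members and higher for 0 (edgeR, adjusted p under 0.05), where 21.3% of all genes were lower and 19.7% higher. The log2 difference, shRNA-1 minus shRNA-2, was negative for all 39, from -3.14 to -0.31, with a median of -1.44. Without Mx1 and Mx2 it was lower for 32 of 37, with a median of -1.25. It was not called for Oas1g, Oas2, Eif2ak2, Bst2 and Ifi35. A group of 8 members was called higher with both hairpins (Irf9, Oas1a, Oas1g, Oasl2, Ifit2, Ifit3, Cmpk2 and Ifitm3), and 0 lower with both, where 9.24% of all genes were higher and 9.57% lower with both. Both comparisons use the same 3 control libraries. All shRNA-2 libraries lay above all controls for 33 of 39 members (31 of 37 without Mx1 and Mx2), where 27.3% of all genes did, and the shRNA-1 group lay wholly above the controls for 6 and wholly below them for 5, where 26.8% and 25.8% did. Between the hairpins, the shRNA-1 libraries lay wholly below the shRNA-2 libraries for 32 members (30 of 37 without Mx1 and Mx2) and above them for 0, where 24.3% and 25.5% of all genes did. Called rises of at least 2-fold were found for 28 of the 39 members with shRNA-2 (26 of 37 without Mx1 and Mx2) and 5 of 39 with shRNA-1. Of all genes tested, 12.4% and 5.82% were called higher by that much.

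**Figure D1:**
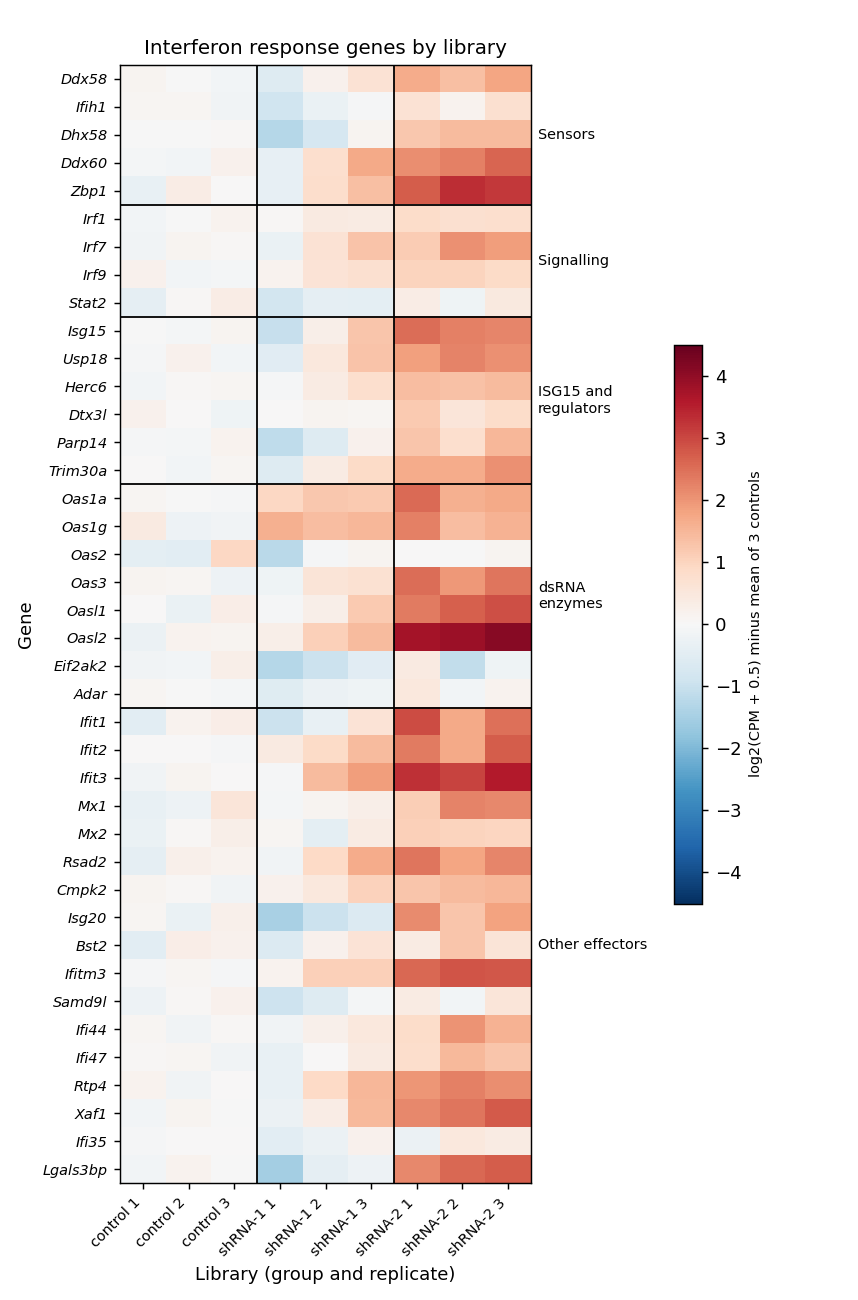
Level of the 40 interferon response genes (rows, grouped by role) in each of the 9 libraries (columns), as log2(CPM + 0.5) minus the mean of the 3 controls, red for higher and blue for lower. The 3 shRNA-2 libraries are red in nearly every row, while the shRNA-1 libraries differ among themselves, with replicate 1 the lowest of its group in 37 of the 39 tested genes.

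The shRNA-1 libraries were spread far more widely over these genes than the other groups. The median over the 39 members of the log2 level above the control mean was -0.33, 0.26 and 0.70 in shRNA-1 replicates 1, 2 and 3. In the controls it lay between -0.05 and 0.05, and in the shRNA-2 libraries it was 1.67, 1.46 and 1.79. Replicate 1 was the lowest of the shRNA-1 libraries for 37 of 39 members and replicate 3 the highest for 34 of 39, where 39.7% and 37.9% of all genes tested had these libraries as lowest and highest. Replicate 1 had the fewest counts of all libraries, 9559638, and replicate 3 the largest share of ribosomal RNA, 19.3% beside 14.8% and 11.98% in replicates 1 and 2, and the part of depth in the result was not tested. Without replicate 1 the test called 19 members higher with shRNA-1 and 1 lower (14.2% and 13.3% of all genes), and without replicate 3 it called 4 higher and 6 lower (12% and 12.5%). With the share of ribosomal RNA as a covariate, 2 members were called higher with shRNA-1 and 0 lower, and 31 higher with shRNA-2, while over all genes the share called with shRNA-1 went from 34.7% to 10.7% and that with shRNA-2 from 48.7% to 45.7%. Every shRNA-1 library held a larger share of ribosomal RNA than every control. The covariate and this hairpin therefore cannot be cleanly told apart, and calls lost in that fit do not decide between them. Scaling by total counts in place of TMM gave 5 higher and 8 lower with shRNA-1, where 8.56% of all genes were higher and 27.4% lower, and it moved the median of all genes to -0.23.

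The sensors all rose with shRNA-2 (5 of 5, median log2 fold change 1.63), and none was called with shRNA-1 (0 of 5, median 0.18). Without shRNA-1 replicate 1, Ddx60 and Zbp1 were called higher with shRNA-1, without shRNA-1 replicate 3 Dhx58 was called lower, and with total counts Ifih1 and Dhx58 were. Ddx58 encodes RIG-I, the helicase that recognises viral RNA by its unprocessed end, and its gene lies at chr4:40203773-40239828 (mm10, GENCODE M21). Its level was 37.7, 33.8 and 31.6 CPM in the controls, 23.0, 39.1 and 54.7 with shRNA-1 and 111, 87.6 and 119.8 with shRNA-2. The shRNA-2 libraries lay above all others, and the shRNA-1 libraries ran from below to above the controls. The rise with shRNA-2 was 3.09-fold (log2 fold change 1.63 ± 0.24, edgeR adjusted p = 0.000229), and the values with ± that follow are such log2 fold changes and their standard errors. Zbp1, a sensor of nucleic acid in the Z conformation that can start necroptosis (chr2:173206612-173218923), had 7.50, 12.1 and 9.68 CPM in the controls, 7.36, 17.0 and 25.6 with shRNA-1 and 65.6, 101 and 91.3 with shRNA-2. With shRNA-2 it rose 8.82-fold (3.14 ± 0.35, adjusted p = 2.86e-05), and with shRNA-1, where 2 of the 3 libraries lay above every control, the log2 fold change was 0.79 ± 0.34 (edgeR adjusted p = 0.0972).

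Ddx60, a helicase reported to assist RIG-I, was measured at 5.27, 5.17 and 6.45 CPM in the controls, 4.17, 9.83 and 19.3 with shRNA-1 and 25.8, 29.1 and 36.6 with shRNA-2. The shRNA-1 values spanned a range that took in the controls and came near the lowest shRNA-2 library. Its log2 fold change was 2.43 ± 0.38 with shRNA-2 (adjusted p = 0.000275) and 0.98 ± 0.38 with shRNA-1 (adjusted p = 0.0658, edgeR for both). Dhx58 encodes LGP2, the relative of RIG-I that lacks its signalling domains, and had 8.01, 7.96 and 8.44 CPM in the controls, 3.07, 4.61 and 8.86 with shRNA-1 and 19.6, 22.7 and 22.7 with shRNA-2. It rose by 1.41 ± 0.26 with shRNA-2 (edgeR adjusted p = 0.00084), while 2 of 3 shRNA-1 libraries lay below all controls (-0.55 ± 0.28, adjusted p = 0.144). Its exons overlap those of an antisense gene, Dhx58os, and since the strand setting of the counting is not given, reads of the pair cannot be told apart. Ifih1 encodes MDA5, the sensor of long double-stranded RNA, and was 30.3, 30.4 and 25.9 CPM in the controls, 15.05, 23.3 and 27.4 with shRNA-1 and 45.7, 32.1 and 48.2 with shRNA-2. The shRNA-2 libraries were above the controls by a narrow margin (0.54 ± 0.21, edgeR adjusted p = 0.0448), a call that was lost in 8 of 20 alternative settings.

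Among the signalling genes, 3 of 4 rose with shRNA-2 (median 0.86) and 1 of 4 with shRNA-1 (median 0.40; 2 of 4, with Irf7, without shRNA-1 replicate 1). Irf7, the factor that drives most interferon alpha genes once induced, had 16.0, 19.4 and 18.6 CPM in the controls, 14.5, 28.5 and 44.8 with shRNA-1 and 39.9, 75.5 and 67.7 with shRNA-2. All shRNA-2 libraries exceeded the controls, the lowest of them below the highest shRNA-1 library. The log2 fold changes were 1.76 ± 0.33 with shRNA-2 and 0.71 ± 0.33 with shRNA-1 (edgeR adjusted p = 0.00102 and 0.117). Irf9, the DNA-binding subunit of the complex on the ISRE, was at 128, 102 and 104 CPM in the controls, 122, 169.9 and 184 with shRNA-1 and 222, 224 and 202 with shRNA-2. It was called with both hairpins, at 0.51 ± 0.16 with shRNA-1 and 0.95 ± 0.16 with shRNA-2 (edgeR adjusted p = 0.0263 and 0.000452). One shRNA-1 library lay among the controls, and the shRNA-1 call was lost in 7 of 20 alternative settings. Irf1, a factor that binds the same promoters and is also a target of interferon gamma, rose with shRNA-2 alone by the test (0.76 ± 0.13, adjusted p = 0.000569, against 0.28 ± 0.13, adjusted p = 0.115, with shRNA-1, edgeR). The difference between the hairpins was called for Irf1 too, at -0.48 ± 0.13. Stat2, which brings the activation domain to that complex, was 9.83, 13.8 and 16.8 CPM in the controls, 7.25, 9.83 and 9.597 with shRNA-1 and 16.8, 11.5 and 17.8 with shRNA-2. Its controls and shRNA-2 libraries overlapped, the shRNA-1 libraries lay below the controls by a narrow margin, and neither comparison with the control was called (-0.59 ± 0.23 and 0.19 ± 0.22). Stat2 was called lower with shRNA-1 under total counts, no filter, DESeq2, the replicate block and fits of 2 groups. The same held without shRNA-2 replicate 2 or without control replicate 1. Irf7 shares exonic bases with Phrf1 on the other strand, Irf1 with Gm17334, and Irf9 with Rnf31 on its own strand, so reads in those stretches are uncertain.

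All 6 genes of the ISG15 and ubiquitin group rose with shRNA-2 (median 1.62), and 0 of 6 were called with shRNA-1 (median 0.38). Without shRNA-1 replicate 1, Isg15, Usp18, Herc6 and Trim30a were called higher with shRNA-1, 4 of 6, and without shRNA-1 replicate 3 Parp14 was called lower. Isg15 encodes the ubiquitin-like protein that is attached to new proteins during the response (chr4:156199424-156200818), and its promoter, printed above, has 3 overlapping ISRE matches. The level was 19.6, 18.9 and 21.7 CPM in the controls, 9.44, 24.0 and 47.7 with shRNA-1 and 116, 98.7 and 94.0 with shRNA-2. The shRNA-2 libraries clustered far above the rest, while the shRNA-1 libraries ran from below to above the controls. Isg15 rose 5.12-fold with shRNA-2 (2.35 ± 0.39, edgeR adjusted p = 0.000422), and its log2 fold change with shRNA-1 was 0.44 ± 0.38 (adjusted p = 0.402). Usp18, the protease that removes ISG15 and also restrains the interferon receptor, had 15.9, 18.6 and 14.9 CPM in the controls, 11.3, 22.8 and 40.9 with shRNA-1 and 59.9, 79.0 and 70.1 with shRNA-2. The shRNA-2 libraries lay above all others and the shRNA-1 libraries ran from below to above the controls, with 2.08 ± 0.33 for shRNA-2 and 0.61 ± 0.33 for shRNA-1 (edgeR adjusted p = 0.000309 and 0.168).

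Trim30a, a ligase known to restrain Toll-like receptor signalling, was at 56.8, 51.8 and 60.2 CPM in the controls, 37.6, 72.5 and 103 with shRNA-1 and 180.01, 181 and 234 with shRNA-2. No shRNA-2 library overlapped another group, and the rise was 1.82 ± 0.27 (edgeR adjusted p = 0.000234), with 0.34 ± 0.27 for shRNA-1 (adjusted p = 0.354). It belongs to a family of close copies, so its reads are uncertain. Parp14, an ADP-ribosyltransferase, had 13.7, 13.2 and 15.8 CPM in the controls, 6.15, 9.45 and 16.1 with shRNA-1 and 34.2, 24.1 and 40.5 with shRNA-2. The shRNA-2 libraries lay above all others and 2 of the shRNA-1 libraries below the controls, with log2 fold changes of 1.21 ± 0.27 and -0.42 ± 0.29 (edgeR adjusted p = 0.00329 and 0.271). Herc6, the ligase that attaches ISG15 in mice, rose by 1.43 ± 0.18 with shRNA-2, and Dtx3l, a ubiquitin ligase that works with PARP9, rose by 0.86 ± 0.16 (edgeR adjusted p = 7.58e-05 and 0.00101). Their shRNA-1 values were 0.42 ± 0.19 and 0.07 ± 0.16, neither called. Dtx3l shares exonic bases with Parp9 on the other strand, and Usp18, Herc6 and Parp14 each with a predicted gene.

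**Figure D2:**
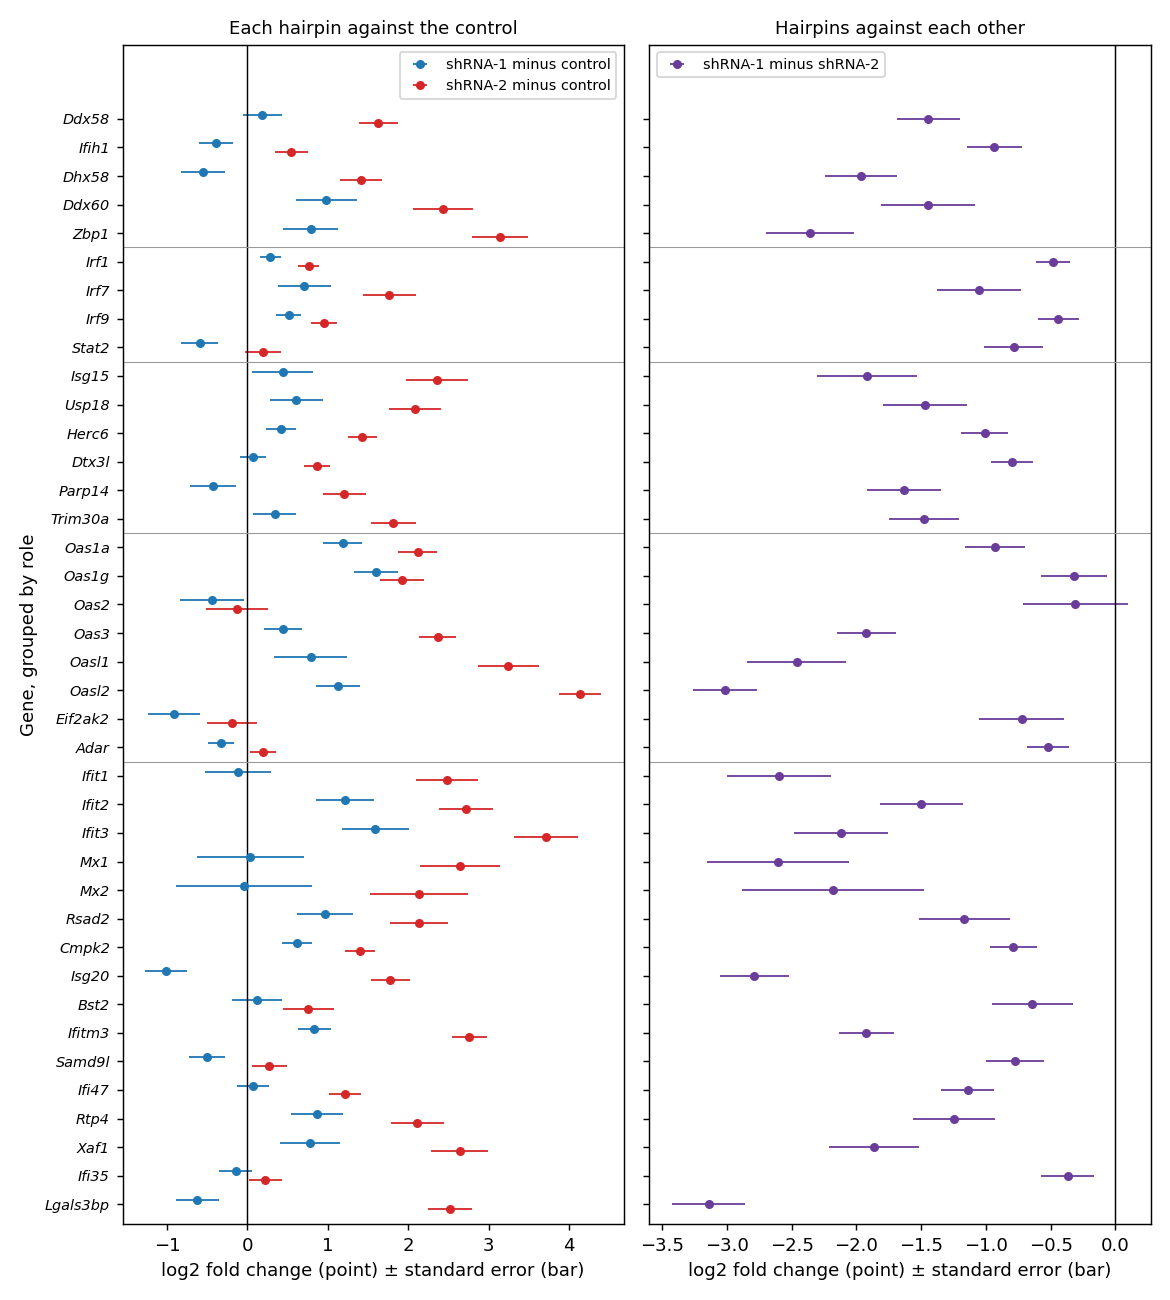
Log2 fold change ± standard error of the 39 tested genes, grouped by role, for each hairpin against the control (left, shRNA-1 blue and shRNA-2 red) and for shRNA-1 minus shRNA-2 (right). Every difference between the hairpins lies left of 0, from -3.14 for Lgals3bp to -0.31 for Oas2.

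The enzymes that bind double-stranded RNA and their relatives were divided. Of 8, 5 rose with shRNA-2 (median 2.02), and with shRNA-1 3 rose and 1 fell (median 0.61). The rises were all in the OAS family, whose members make oligoadenylates that switch on RNase L, or in its relatives. Oasl2 (chr5:114896936-114912234) had the largest rise of all 39 with shRNA-2, with 2.08, 2.92 and 2.83 CPM in the controls, 3.18, 5.91 and 7.75 with shRNA-1 and 41.3, 43.7 and 52.5 with shRNA-2. Every shRNA-1 library lay above every control and every shRNA-2 library far above both. The rise was 17.6-fold with shRNA-2 (4.13 ± 0.26, edgeR adjusted p = 9.01e-07) and 2.18-fold with shRNA-1 (1.13 ± 0.27, adjusted p = 0.00854), and the hairpins differed by -3.01 ± 0.25. Its neighbour Oasl1, known to limit the translation of Irf7, was at 0.710, 0.464 and 0.973 CPM in the controls, 0.659, 0.922 and 2.21 with shRNA-1 and 5.52, 7.19 and 8.43 with shRNA-2. These are low levels, with 1 shRNA-1 library above the controls, and the log2 fold changes were 3.24 ± 0.38 with shRNA-2 and 0.78 ± 0.45 with shRNA-1 (edgeR adjusted p = 4.16e-05 and 0.196). Oas3, the family's largest enzyme, had 8.62, 8.49 and 6.63 CPM in the controls, 6.81, 12.1 and 13.1 with shRNA-1 and 46.7, 31.7 and 43.6 with shRNA-2. Only the shRNA-2 libraries stood clear of the controls as a group, at 2.37 ± 0.23 against 0.44 ± 0.24 with shRNA-1 (edgeR adjusted p = 1.11e-05 and 0.164).

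Oas1g and Oas1a were the members that kept their call with shRNA-1 in all 20 alternative settings. Oas1g (chr5:120876142-120887613), the first of the promoters printed above, was at 4.00, 2.39 and 2.56 CPM in the controls, 9.88, 8.37 and 9.14 with shRNA-1 and 15.8, 8.43 and 9.71 with shRNA-2. Both knockdown groups lay above the controls and overlapped each other, with 1.60 ± 0.27 for shRNA-1 and 1.92 ± 0.27 for shRNA-2 (edgeR adjusted p = 0.00136 and 0.000143). The difference between the hairpins was -0.32 ± 0.26 (adjusted p = 0.348, edgeR), which does not show that they act alike on this gene. Oas1a, beside it on chromosome 5, had 6.44, 6.03 and 5.84 CPM in the controls, 12.1, 14.9 and 14.6 with shRNA-1 and 38.5, 19.6 and 21.0 with shRNA-2. The groups did not overlap, and the rises were 1.19 ± 0.24 and 2.12 ± 0.24 (edgeR adjusted p = 0.0035 and 3.24e-05). These are near-identical copies, so how their reads were divided is uncertain. Oas2, in the same cluster, was 7.50, 7.43 and 20.2 CPM in the controls, 4.17, 10.1 and 11.5 with shRNA-1 and 10.6, 10.4 and 11.4 with shRNA-2. Control replicate 3 was well above the other two, and neither hairpin was called (-0.44 ± 0.40 and -0.13 ± 0.39).

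The 2 enzymes outside the OAS family were not called higher with either hairpin. Eif2ak2 encodes PKR, the kinase that halts translation when it binds double-stranded RNA, and was 19.3, 19.4 and 26.0 CPM in the controls, 8.57, 10.7 and 14.9 with shRNA-1 and 28.2, 9.59 and 18.6 with shRNA-2. All shRNA-1 libraries lay below the controls and the shRNA-2 libraries spanned them, with log2 fold changes of -0.92 ± 0.32 (edgeR adjusted p = 0.0459) and -0.19 ± 0.31 (adjusted p = 0.635). The call with shRNA-1 was lost in 8 of 20 alternative settings. Adar encodes ADAR1, which edits adenosine to inosine in double-stranded RNA and so hides the cell's own RNA from MDA5, and had 40.4, 36.8 and 35.7 CPM in the controls, 25.4, 31.6 and 32.9 with shRNA-1 and 52.1, 34.8 and 42.0 with shRNA-2. Each shRNA-1 library was below each control, but neither comparison with the control was called (-0.33 ± 0.16 and 0.19 ± 0.16, edgeR adjusted p = 0.131 and 0.335). The hairpins differed by -0.52 ± 0.16 (adjusted p = 0.0214).

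**Figure D3:**
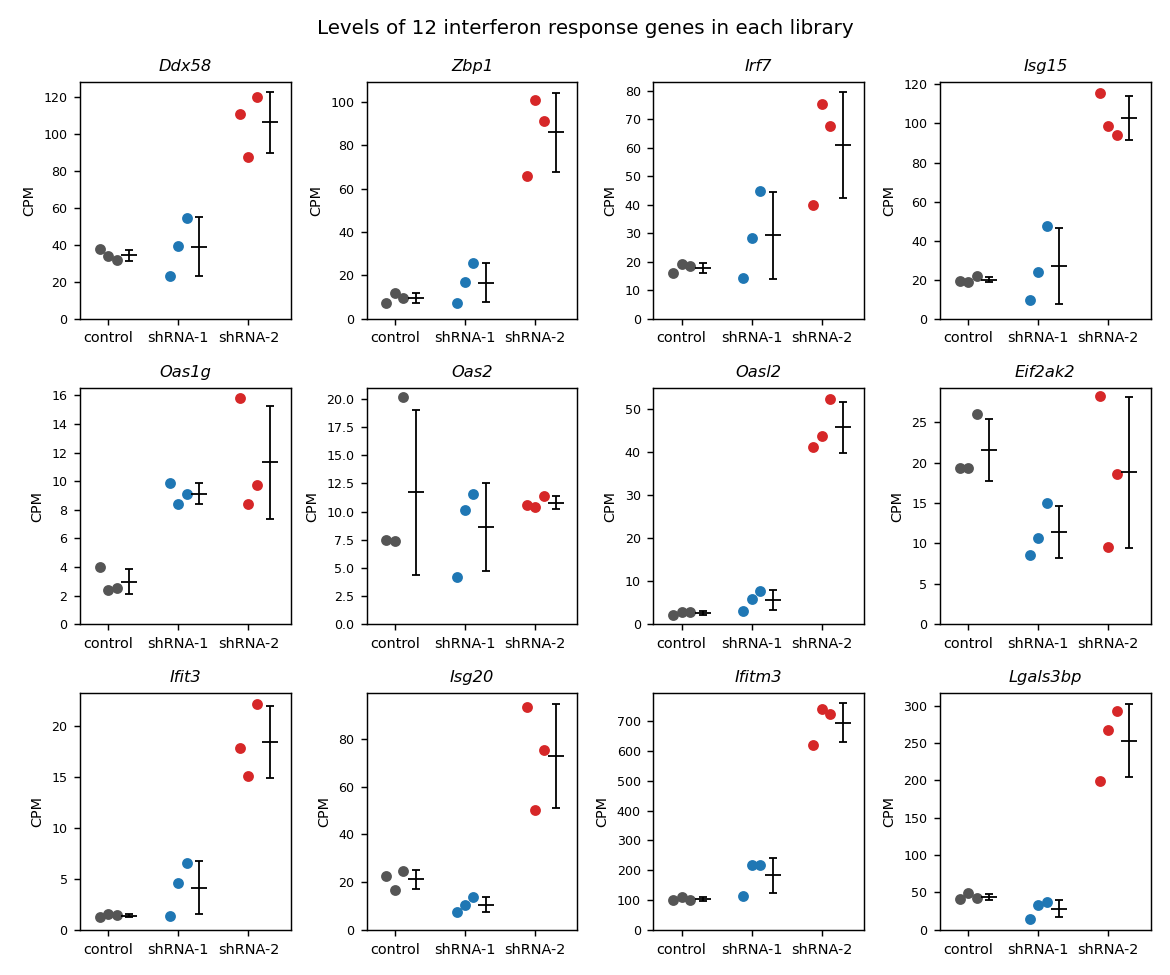
CPM of 12 interferon response genes in each library (points; bars are mean ± SD, n = 3; each panel has its own axis from 0). The shRNA-2 points stand above all others for Ddx58, Zbp1, Isg15, Oasl2, Ifit3, Isg20, Ifitm3 and Lgals3bp, both knockdowns lie above the controls for Oas1g, and for Oas2 and Eif2ak2 the shRNA-2 points overlap the controls.

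Of the 16 tested genes among the other effectors, 13 rose with shRNA-2 (median 2.13), and with shRNA-1 4 rose and 1 fell (median 0.09). Without Mx1 and Mx2, which passed the filter only through the shRNA-2 libraries, 11 of 14 rose with shRNA-2 (median 2.12), and the median with shRNA-1 was 0.36. The IFIT proteins bind viral RNA and stall its translation, and their 3 genes lie in 1 cluster on chromosome 19. Ifit3 (chr19:34583531-34588731) was at 1.22, 1.59 and 1.41 CPM in the controls, 1.32, 4.61 and 6.55 with shRNA-1 and 17.9, 15.2 and 22.2 with shRNA-2. The first shRNA-1 library lay among the controls and the other two above them, and the rises were 3.01-fold with shRNA-1 (1.59 ± 0.42, edgeR adjusted p = 0.0125) and 13.1-fold with shRNA-2 (3.71 ± 0.39, adjusted p = 2.04e-05). Ifit2 had 1.32, 1.33 and 1.24 CPM in the controls, 1.87, 2.76 and 4.34 with shRNA-1 and 8.59, 5.41 and 11.5 with shRNA-2. Its 3 groups did not overlap, at 1.22 ± 0.36 with shRNA-1 and 2.71 ± 0.34 with shRNA-2 (edgeR adjusted p = 0.022 and 5.98e-05). Ifit1, in contrast, was 5.73, 9.02 and 10.1 CPM in the controls, 3.84, 6.22 and 12.7 with shRNA-1 and 64.5, 27.3 and 47.0 with shRNA-2. The shRNA-1 libraries spanned the controls (-0.12 ± 0.40, edgeR adjusted p = 0.851), and the rise with shRNA-2 was 2.48 ± 0.38 (adjusted p = 0.000277). The shRNA-1 call was lost in 4 of 20 alternative settings for Ifit3 and in 8 of 19 for Ifit2, and the family's members are related in sequence.

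Ifitm3, a membrane protein that keeps viruses from fusing out of endosomes (chr7:141009586-141010770), was at 99.3, 109.99 and 99.4 CPM in the controls, 115, 217 and 218 with shRNA-1 and 621, 742 and 723 with shRNA-2. The shRNA-1 libraries were all above the controls and the shRNA-2 libraries well above both, with 0.83 ± 0.21 and 2.76 ± 0.22 (edgeR adjusted p = 0.00971 and 3.3e-06). Rsad2 encodes viperin, which makes a nucleotide that ends viral RNA chains, and had 25.3, 39.2 and 37.2 CPM in the controls, 29.98, 62.3 and 106 with shRNA-1 and 179, 114 and 153 with shRNA-2. Its shRNA-2 libraries lay above all others, and 2 of 3 shRNA-1 libraries above the controls. It rose by 2.13 ± 0.36 with shRNA-2 (edgeR adjusted p = 0.00048), and with shRNA-1 it stood just outside the threshold (0.97 ± 0.35, adjusted p = 0.0504). Cmpk2, the nucleotide kinase next to it on chromosome 12, passed in both, at 0.61 ± 0.19 with shRNA-1 and 1.40 ± 0.19 with shRNA-2 (adjusted p = 0.0242 and 9.96e-05, edgeR). The shRNA-1 call of Cmpk2 was lost in 6 of 20 alternative settings.

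Lgals3bp and Isg20 had the widest differences between the hairpins among the other effectors. Isg20, an exonuclease that degrades viral RNA (chr7:78913424-78920396), was at 22.4, 16.8 and 24.5 CPM in the controls, 7.36, 10.6 and 13.6 with shRNA-1 and 93.4, 50.04 and 75.2 with shRNA-2. Each shRNA-1 library lay below each control, and each shRNA-2 library above. Isg20 fell with shRNA-1 (-1.01 ± 0.26, edgeR adjusted p = 0.0112) and rose with shRNA-2 (1.78 ± 0.25, adjusted p = 0.000129), a difference of -2.79 ± 0.26 (adjusted p = 1.34e-05). The fall with shRNA-1 did not pass when control replicate 3 was left out (edgeR adjusted p = 0.0502). Nor did it pass when the ribosomal RNA share, not cleanly separable from this hairpin, entered the fit (-0.48, edgeR adjusted p = 0.359). Lgals3bp, a secreted glycoprotein that binds galectin (chr11:118392751-118402092), had 40.6, 49.1 and 43.1 CPM in the controls, 14.9, 33.6 and 37.2 with shRNA-1 and 199, 268 and 293 with shRNA-2. It rose 5.72-fold with shRNA-2 (2.52 ± 0.27, edgeR adjusted p = 2.25e-05). All shRNA-1 libraries were below the controls without a call (-0.62 ± 0.27, adjusted p = 0.0881), and the difference between the hairpins, -3.14 ± 0.28, was the largest of the 39 (edgeR adjusted p = 9.22e-06).

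Xaf1, which promotes cell death by binding XIAP, was 2.99, 3.65 and 3.27 CPM in the controls, 2.64, 4.30 and 9.87 with shRNA-1 and 16.4, 19.8 and 25.4 with shRNA-2. With shRNA-1, 2 libraries stood above the controls and 1 below, and the log2 fold changes were 2.64 ± 0.36 with shRNA-2 and 0.77 ± 0.37 with shRNA-1 (edgeR adjusted p = 0.000106 and 0.129). Rtp4, a chaperone of receptors that also acts against viruses, had 47.9, 38.9 and 43.3 CPM in the controls, 34.3, 80.5 and 122 with shRNA-1 and 171, 207 and 184 with shRNA-2. Again 2 shRNA-1 libraries lay above the controls and 1 below (0.87 ± 0.32, edgeR adjusted p = 0.0539), and with shRNA-2 all lay above (2.11 ± 0.33, adjusted p = 0.000279). Ifi47, a GTPase of the immunity-related family, rose with shRNA-2 only by the test (1.21 ± 0.20 against 0.07 ± 0.20, edgeR adjusted p = 0.000433 and 0.826), and the hairpins differed by -1.14 ± 0.20.

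The Mx proteins are dynamin-like GTPases that block incoming viruses, and both genes were near the limit of detection. Mx1 was at 0.203, 0.265 and 0.796 CPM in the controls, 0.329, 0.461 and 0.554 with shRNA-1 and 1.41, 3.63 and 3.44 with shRNA-2. Mx2, which GENCODE lists as a polymorphic pseudogene in mice, had 1, 3 and 7 (controls), 2, 0 and 4 (shRNA-1) and 15, 11 and 12 (shRNA-2) counts. Both rose with shRNA-2 (2.64 ± 0.50 and 2.13 ± 0.61, edgeR adjusted p = 0.00102 and 0.0127), as genes that entered the test through those libraries had to differ, and with shRNA-1 the values were 0.04 ± 0.66 and -0.05 ± 0.85, neither called. Ifi44, which failed the filter and was not tested, had 2, 0 and 2 (controls), 0, 2 and 3 (shRNA-1) and 8, 23 and 17 (shRNA-2) counts, the highest of them in the shRNA-2 libraries. A level of 3 counts corresponds to between 0.133 and 0.329 CPM, depending on the library.

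Bst2, Samd9l and Ifi35 were not called in either comparison with the control. Bst2 encodes tetherin, which holds budding virions at the cell surface, and ranged from 34.6 to 60.6 CPM in the controls, 31.3 to 75.5 under shRNA-1 and 63.7 to 118 under shRNA-2, where all libraries lay above the controls (0.76 ± 0.31, edgeR adjusted p = 0.062). Samd9l, a restrainer of translation and growth, was lower with shRNA-1 than with shRNA-2 (-0.78 ± 0.22, edgeR adjusted p = 0.0157). Ifi35, a protein released as a danger signal, lay between 30.7 and 59.7 CPM in all 9 libraries with overlapping groups.

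Most of the 10 calls with shRNA-1 depended on single libraries. With shRNA-1 replicate 3 left out, Irf9, Ifit2, Ifit3 and Cmpk2 were no longer called, and with shRNA-1 replicate 2 left out Irf9, Eif2ak2 and Ifitm3 were not. Leaving out control replicate 2 or control replicate 3 ended the calls of Irf9, Ifit2, Cmpk2 and Eif2ak2, control replicate 3 also that of Isg20, control replicate 1 those of Ifit2 and Eif2ak2, and shRNA-1 replicate 1 or shRNA-2 replicate 3 that of Eif2ak2. The highest edgeR adjusted p without 1 library was 0.117 for Irf9, 0.112 for Ifit2, 0.0647 for Ifit3, 0.120 for Cmpk2, 0.160 for Eif2ak2, 0.0502 for Isg20 and 0.0512 for Ifitm3. Oas1a, Oas1g and Oasl2 stayed called without any 1 library, at no more than 0.0189, 0.00968 and 0.0437. Oasl2 was lost with the ribosomal RNA covariate (0.113), which cannot be cleanly told apart from shRNA-1. With shRNA-2, the 1 call lost was that of Ifih1, without shRNA-1 replicate 2, shRNA-2 replicate 1 or 3, or any 1 control, at an edgeR adjusted p of up to 0.146. Of the 34 differences between the hairpins, those of Irf1, Irf7, Irf9, Stat2, Adar, Mx2, Rsad2 and Samd9l were lost without some 1 library, at an edgeR adjusted p of up to 0.161, so all 4 signalling genes were among them.

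Members with and without the letters of the ISRE rose with shRNA-2. Of the 15 members with an ISRE match, all tested, 12 rose with shRNA-2 (median 2.12) and 12 were lower with shRNA-1 than with shRNA-2. Of the 16 tested members with a window and no match, 13 rose (median 1.41) and 15 were lower. With shRNA-1, 4 rose and 1 fell in either set. Of all genes tested, 24.4% rose with shRNA-2 and 21.3% were lower with shRNA-1 than with shRNA-2. With shRNA-1, 17.4% of all genes rose and 17.3% fell, and the shRNA-1 counts of either set were too few to set apart from that background. Oas1g and Isg15, both with overlapping matches close to the start, had a difference between the hairpins of -0.32 ± 0.26 and -1.92 ± 0.38.

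The ligands of the response were at the limit of detection. Of 19 interferon genes with a symbol in the tables, 17 had 0 counts in all 9 libraries, and Ifnb1 and Ifnz had 1 count each, in shRNA-1 replicates 3 and 2. A count of 0 allows a level of up to 3 assigned counts, so transcripts below that were not detectable at this depth. How reads shared between related interferon genes were assigned is uncertain. Of 7 genes for the interferon receptors and their kinases, 5 rose with shRNA-2 and 0 fell, and with shRNA-1 1 rose and 1 fell. Of all genes, 24.4% rose and 24.2% fell with shRNA-2, and 17.4% and 17.3% with shRNA-1, so the shRNA-1 counts lay close to the background. Ifnar1, a chain of the type I receptor, had 7.55, 10.2 and 10.4 CPM in the controls, 7.69, 11.5 and 13.2 with shRNA-1 and 16.1, 19.9 and 17.1 with shRNA-2, and Ifnar2, its partner, 74.3, 72.4 and 59.6 CPM in the controls, 60.4, 64.6 and 73.1 with shRNA-1 and 96.2, 144 and 137 with shRNA-2. The shRNA-2 libraries lay above the others for both chains (0.91 ± 0.20 and 0.87 ± 0.16, edgeR adjusted p = 0.00273 and 0.000932), and the shRNA-1 libraries overlapped the controls. Tyk2, a kinase bound to that receptor, was at 38.2, 43.5 and 47.8 CPM in the controls, 19.3, 21.9 and 23.8 with shRNA-1 and 56.9, 54.3 and 61.7 with shRNA-2. It fell with shRNA-1 (-0.99 ± 0.13, edgeR adjusted p = 0.00039) and rose with shRNA-2 (0.42 ± 0.13, adjusted p = 0.0176), as Isg20 did. Ifngr2, a chain of the receptor for interferon gamma, was the receptor gene called higher with both (0.64 ± 0.13 and 1.29 ± 0.13).

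Of 6 other transcription factors of the pathway, 4 rose and 1 fell with shRNA-2, and 1 rose and 1 fell with shRNA-1. Beside them, 24.4% and 24.2% of all genes rose and fell with shRNA-2, and 17.4% and 17.3% with shRNA-1. The shRNA-1 counts again lay close to that background. Irf3, which the sensors activate to start interferon transcription, was at 29.2, 34.8 and 41.2 CPM in the controls, 25.1, 32.2 and 31.0 with shRNA-1 and 12.1, 18.1 and 20.4 with shRNA-2. It fell with shRNA-2 (-1.06 ± 0.20, edgeR adjusted p = 0.000949), the reverse of Irf7. Irf5, a factor of myeloid cells downstream of Toll-like receptors, rose with both hairpins, at 1.57 ± 0.26 and 2.45 ± 0.25 (edgeR adjusted p = 0.00104 and 1.73e-05).

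Of 15 upstream adaptors, kinases and ligases, 5 were higher and 3 lower under shRNA-2, and 3 higher and 3 lower under shRNA-1, where 24.4% and 24.2%, and 17.4% and 17.3%, of all genes were, so that these counts lay close to the background. Tlr3 and Tlr7, the endosomal receptors of RNA, rose with both hairpins (1.503 ± 0.49 and 1.22 ± 0.34 with shRNA-1, 3.41 ± 0.41 and 2.64 ± 0.33 with shRNA-2), and Irak1, a kinase of the pathway below Tlr7, fell with both (-0.75 ± 0.12 and -1.14 ± 0.12). The adjusted p of these 6 differences ran from 1.56e-05 to 0.0329 in edgeR's test. Tlr3 passed the filter only through the shRNA-2 libraries. Of 13 negative regulators, 4 rose and 3 fell with shRNA-2, and 2 rose and 0 fell with shRNA-1, too few to set apart from the same background. Socs1, which blocks the receptor kinases, had 12.6, 13.4 and 9.77 CPM in the controls, 40.2, 48.4 and 42.7 with shRNA-1 and 96.5, 109.6 and 66.4 with shRNA-2. The 3 groups did not overlap, with rises of 1.88 ± 0.19 and 2.93 ± 0.20 (edgeR adjusted p = 8.6e-05 and 1.35e-06). Socs3, a relative that acts on cytokine receptors, rose by 2.35 ± 0.28 with shRNA-2 and was not called with shRNA-1 (0.64 ± 0.30, edgeR adjusted p = 4.84e-05 and 0.117).

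**Figure D4:**
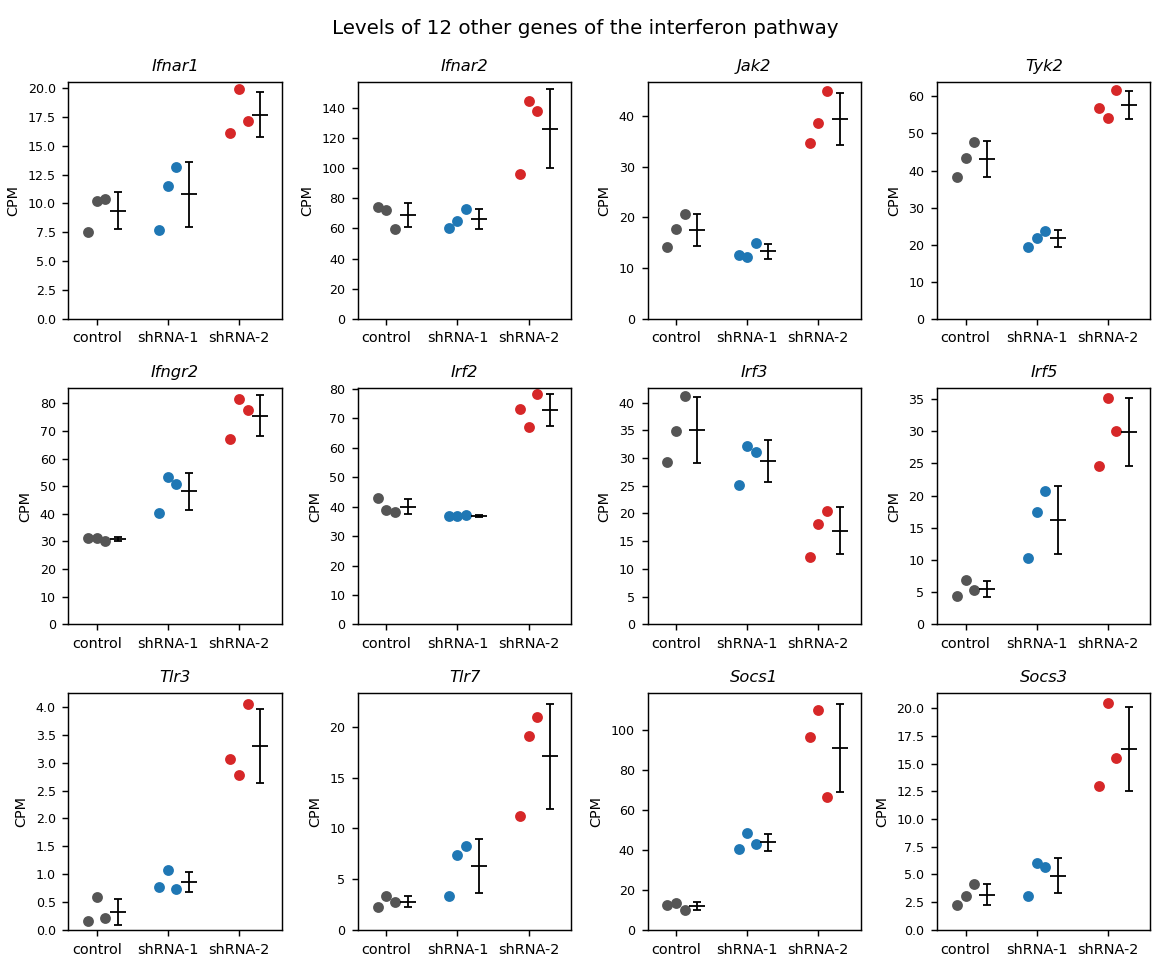
CPM of 12 other genes of the interferon pathway in each library (points; bars are mean ± SD, n = 3; each panel has its own axis from 0). Tyk2 lies below the controls with shRNA-1 and above them with shRNA-2, Irf3 lies below them with shRNA-2, and Irf5, Tlr3, Tlr7 and Socs1 are called higher with both.

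A further 66 interferon-induced genes outside the 40 were tested. With shRNA-2, 47 of them rose and 4 fell, and with shRNA-1 17 rose and 7 fell, while 40 were lower and 3 higher with shRNA-1 than with shRNA-2. Of all genes tested, 21.3% were lower and 19.7% higher with shRNA-1 than with shRNA-2. With both hairpins 14 of the 66 were higher and 3 lower, where 9.24% and 9.57% of all genes were. Called higher with both hairpins were Ifi27l2a, Ifitm6, Ifi204, Parp12, Nmi, Uba7, Ube2l6, Mov10, Ms4a4c, Ly6a, Plac8, Epsti1, Cd274 and Tdrd7, and lower with both Trim5, Trim56 and Slfn9. Uba7 and Ube2l6 are the activating and conjugating enzymes of ISG15, and Uba7 rose by 0.60 ± 0.18 (shRNA-1) and 0.68 ± 0.18 (shRNA-2), Ube2l6 by 1.29 ± 0.43 and 3.50 ± 0.37. Apol9b, Tnfsf10, Ube2l6 and Mnda passed the filter only through the shRNA-2 libraries, so that their place among the largest values follows in part from the filter, and without them 43 of 62 rose with shRNA-2 and 36 were lower with shRNA-1 than with shRNA-2. The largest rises with shRNA-1 were Ifitm6 (2.75 ± 0.17), a relative of Ifitm3, and Ly6a (2.51 ± 0.51), which encodes the surface antigen Sca-1. With shRNA-2 they were Apol9b (4.58 ± 0.53), Gbp2 (3.78 ± 0.41), a GTPase that attacks the vacuoles of pathogens, and Ifi27l2a (3.68 ± 0.44). The widest differences between the hairpins were Apol9b (-3.84 ± 0.55), Phf11d (-3.18 ± 0.44) and Tnfsf10 (-2.96 ± 0.55), the death ligand TRAIL. Over the whole list of 107 tested genes outside the members, 65 rose and 11 fell with shRNA-2, and 24 rose and 12 fell with shRNA-1, with medians of 0.61 and 0.11. All genes had 24.4% higher and 24.2% lower with shRNA-2, and 17.4% and 17.3% with shRNA-1. Without the 5 that passed the filter only through the shRNA-2 libraries, 60 of 102 rose with shRNA-2 and 22 with shRNA-1.

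Markers of other cell types were measured beside these genes. Of 18 tested monocyte and macrophage markers, 16 rose and 0 fell with shRNA-2 and 6 rose and 0 fell with shRNA-1, and the summed level of the 21 listed genes was 1071 to 1437 CPM in the controls, 1565 to 2762 with shRNA-1 and 2424 to 4236 with shRNA-2. Csf1r, the receptor that defines the lineage, had 39.4, 50.1 and 66.4 CPM in the controls, 29.98, 63.7 and 54.8 with shRNA-1 and 167, 283 and 349.9 with shRNA-2, and Cd68, a protein of its lysosomes, 56.4, 64.8 and 58.2 CPM in the controls, 57.7, 83.1 and 85.1 with shRNA-1 and 249, 327 and 323 with shRNA-2. Csf1r and Cd68 were called higher with shRNA-2 alone, while 6 markers of the list rose with both hairpins. Among the 6 were Mpeg1 (2.09 ± 0.35 with shRNA-1, 2.73 ± 0.35 with shRNA-2) and Lyz2 (1.68 ± 0.34 and 2.10 ± 0.34). Ly6c2 and Cx3cr1 were called with neither. C1qa, among the 16 that rose with shRNA-2, passed the filter only through the shRNA-2 libraries. Of all genes, 24.4% rose and 24.2% fell with shRNA-2, and 17.4% and 17.3% with shRNA-1. Neutrophil markers summed to 12510 to 12951 CPM in the controls, 29389 to 37652 with shRNA-1 and 35768 to 50630 with shRNA-2. These sums were mainly S100a8 and S100a9. Of 14 tested, 11 rose and 1 fell with shRNA-1 and 9 rose and 2 fell with shRNA-2, where Ltf (-1.15 ± 0.18) and Csf3r (-1.16 ± 0.33) were the falls. Markers of plasmacytoid dendritic cells, the main producers of interferon alpha, summed to 231 to 314 CPM in the controls and to 123 to 170 and 126 to 228 with the hairpins, mainly Tcf4 and Runx2, which other cells express too, while their defining gene Siglech had 1 count in 1 control and 0 in the other 8 libraries. T and NK cell markers summed to 20.3 to 21.8 CPM in the controls, 31.9 to 38.4 with shRNA-1 and 11.4 to 15.3 with shRNA-2. Nkg7 was the largest part of each sum. Its log2 fold changes were 0.88 ± 0.19 for shRNA-1 and -1.38 ± 0.20 for shRNA-2, both called. Cd3d, at 2 to 26 counts per library, was called higher under shRNA-2 alone (1.94 ± 0.48). It passed the filter only through the shRNA-2 libraries, so that this call follows in part from the filter. Lck and Cd5, the other tested genes of this list, were called in neither comparison with the control. Cd3g, Cd8a and Trac were at 0 in every library. The part of the myeloid markers in the result was not tested, and the labels name no sort of the cells.

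Positions and copies bear on how far these genes count separately. The 40 members lie on 14 chromosomes (GENCODE M21 on GRCm38, the assembly of mm10), but the Oas genes form 1 cluster on chromosome 5 with Oasl1 and Oasl2 on the same chromosome, the Ifit genes another on chromosome 19, and Rsad2 and Cmpk2 a pair on chromosome 12. Exons of 14 of the 40 overlap those of another annotated gene.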

How the data were processed

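Libraries were primed with oligo-dT on total RNA, per the labels' protocols. Each deposited table holds raw counts of reads by gene symbol, which the authors made with STAR 2.3.0e and HTSeq 0.6.0 on mm10, per the submitters' processing notes. The annotation release and strand setting are not stated in those notes. The tables held 39179 entries for 38926 symbols, and entries of the 176 repeated symbols were summed. After filterByExpr by group (minimum count 10), 12663 genes were tested in 1 fit of all 9 libraries with TMM scaling and edgeR's quasi-likelihood test (edgeR 4.0.16, R 4.3.3), checked on simulated data. Benjamini-Hochberg adjustment ran over all genes tested, with a threshold of 0.05. A standard error is the log2 fold change over the root of its F value. Library depth, 9559638 to 19483923 counts, sets the counting error. Members and lists were chosen with earlier results of these data known.

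Called members were named in full up to the 25 with the largest change in any comparison, and the rest by range and counts. Of the other pathway genes, those called with both hairpins and the 3 largest changes of each comparison were named, with Syncrip as the check. Socs3, Irf3, Ifnar1, Ifnar2 and Tyk2 were named outside this rule after their values were seen. Positions came from GENCODE M21, and promoters from RefSeq on GRCm38.p6. Alternatives were DESeq2 1.42.0, limma-voom (limma 3.58.1), other size factors, other filters, a replicate block, fits of 2 groups, the ribosomal RNA share as a covariate, and each library left out. Removal of both libraries richest in ribosomal RNA, and of its symbols, was added after seeing the data. A gene among those measured is not reported here.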

Additional observations from a re-analysis of the deposited data

How the results depend on the processing

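No called member changed sign, but the balance of shRNA-1 calls turned from more higher to more lower with total counts, without shRNA-1 replicate 3 and without both libraries richest in ribosomal RNA. Of 32 rises with shRNA-2, 31 kept their call in every setting that tested them (Ifih1 did not, and Ifit2, Mx1 and Mx2 were not tested under the 5 CPM filter). Of 34 differences between the hairpins 26 did, and of 10 calls with shRNA-1 2 did (Oas1a and Oas1g). Leaving out each library in turn gave 31 to 34 members higher and 0 lower with shRNA-2, 4 to 19 higher and 0 to 6 lower with shRNA-1, 28 to 36 lower and 0 higher with shRNA-1 than with shRNA-2, and 4 to 19 higher with both. The medians ran from 1.75 to 1.98 (shRNA-2), 0.07 to 0.59 (shRNA-1) and -1.76 to -1.07 (difference). The shRNA-1 rises numbered 19 without shRNA-1 replicate 1, 4 without shRNA-1 replicate 3, and 5 without control replicate 2 or control replicate 3. For the other pathway genes the ranges were 58 to 67 higher and 8 to 13 lower with shRNA-2, 11 to 29 and 8 to 15 with shRNA-1, 7 to 14 and 50 to 59 between the hairpins, and 9 to 25 and 3 to 6 with both.

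Total counts without TMM gave 5 members higher and 8 lower with shRNA-1, 5 higher with both, and a median of 1.60 with shRNA-2, and of the other pathway genes 11 higher and 22 lower with shRNA-1 and 10 higher with both, with the median of all genes at -0.23 and -0.21. Without a filter, 15 members were higher with shRNA-1 and with both, and 6 lower with shRNA-1. Of the 21253 genes tested there, 10.1% were higher and 11.5% lower with shRNA-1. limma-voom called 1 lower with shRNA-1, and fits of only the groups compared 5, where 16.6% and 21.7% of all genes were lower. The ribosomal RNA covariate left 2 members higher with shRNA-1 and with both and 0 lower, and of the other pathway genes 7 higher and 4 lower with shRNA-1 and 6 higher and 2 lower with both. Without both libraries richest in ribosomal RNA, 4 members were higher with shRNA-1 and with both and 6 lower, and 12 and 9 other pathway genes were higher with shRNA-1 and with both. Of all genes, 14.2% were higher and 14.6% lower with shRNA-1 in that fit. The cause of these shifts was not tested, and the ribosomal RNA share cannot be cleanly told apart from shRNA-1.

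The replicate block gave 12 members higher and 5 lower with shRNA-1 and 33 higher with shRNA-2, adding Ddx60, Zbp1, Irf7, Stat2, Rsad2, Samd9l and Lgals3bp with shRNA-1. Correlations of the 9 same-numbered pairs ran from -0.13 to 0.34, 6 of them over 0.1, so pairing was not taken as given, though a library correlated best with its own number in 13 of 18 checks, a hint from the data and not the design. Depth limits Mx1, Mx2, Ifi44 and the interferon genes, at a few counts or none.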
